A study of Mus musculus with 29 samples.

Results

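The invariant alpha chain of mouse natural killer T cells joins TRAV11, or one of its copies TRAV11D and TRAV11N, to TRAJ18, and its occurrence was measured in the T cell receptor repertoires of ovary and brain metastases. Productive alpha chain (TRA) clonotypes were taken when their V name was made only of TRAV11 copies or when their J segment was TRAJ18. A clonotype is a V name, a J name and an amino acid sequence of the CDR3, the most variable stretch of the receptor. The rule found 635 of 21959 TRA clonotypes, which held 24104 of 319742 TRA counts. The canonical class, a TRAV11 copy joined to TRAJ18 with a CDR3 of 15 residues, had 88 clonotypes and 8315 counts. The other TRAV11 clonotypes numbered 83, with 515 counts. TRAJ18 joined to other V segments made up 464 clonotypes with 15274 counts.

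The samples came from an experimental metastasis model of Braf-mutated mouse melanoma in which the timing of PD-L1 blockade around MAPK inhibition was compared. PD-L1 restrains T cells through the receptor PD-1, and trametinib is an inhibitor of MEK, a MAPK pathway kinase. The treatments were the lead-in combination (an anti-PD-L1 lead-in, then anti-PD-L1 plus trametinib, day 3), the concurrent combination (anti-PD-L1 plus trametinib, no lead-in, day 3), trametinib alone (day 3), the anti-PD-L1 lead-in alone (day 0) and no treatment (day 0, titled vehicle). Ovary metastases gave 10 samples, 2 of each treatment, and brain metastases gave 19 samples, 3 of them untreated and 4 of each other treatment. Every tumour carried the Braf mutation, and strain, age and cell line are not given in the labels. Each sample title holds a number, with 1 number per ovary treatment and 2 per brain treatment, and for all but 1 sample also a part of that number. What a number stands for, an animal or otherwise, is not in the labels, so the tests see only the spread between numbers, which may be technical. TRA counts per sample were 14088 to 51549 in the ovary (median 24750, n = 10) and 230 to 9389 in the brain (median 1292, n = 19). A count of 0 therefore allows a share of up to 0.00582% to 0.0213% in ovary samples and 0.0320% to 1.30% in brain samples. These limits and the 95% exact Clopper-Pearson intervals given for single samples cover counting error only.

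Invariant natural killer T cells recognise lipids presented by the MHC-like molecule CD1d and release cytokines rapidly after activation. Their alpha chain is formed by the same V and J segments in nearly all cells of the type, while the beta chain uses a few V segments with variable CDR3. In the RefSeq annotation of the mouse GRCm38.p6 assembly, the TRAV11 copies lie on chromosome 14, each in its own repeat of the V region. Trav11 stands between Trav6-6 and Trav7-5, Trav11d between Trav6d-6 and Trav7d-5, and Trav11n between Trav6n-6 and Trav7n-5. Traj18 lies between Traj19 and Traj17. No coordinates are given here because the submitters' processing notes name a human build, GRCh38.

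The canonical class was dominated by a single CDR3, shown with its 2 most abundant relatives because they carry 97.2% of the class. Capitals mark the longest end of each CDR3 that TRAJ18 also carried with at least 20 different V names other than TRAV11, and lower case marks the residues before it.
Leading canonical chain: cvvgDRGSALGRLHF
Chain with G4A: cvvaDRGSALGRLHF
Chain with G4V: cvvvDRGSALGRLHF
The leading CDR3 had 7573 counts, 91.1% of the class, and was found in all 29 samples and under all 3 V names of TRAV11 copies. With the copies pooled it was the only one of 21908 alpha clonotypes present in all 29 samples. Only the TRAV11 copies were pooled, and other V segments kept their names as listed, so their clonotypes could be split. Under TRAV11N alone the leading CDR3 also had counts in every sample. The next most widely shared alpha clonotype, TRAV7D-2 with TRAJ23, was in 27 samples, and 4 clonotypes were in 20 or more. The second CDR3 differed by G4A, counted from 1 at the conserved cysteine, and had 300 counts in 15 samples. The third differed by G4V and had 210 counts in 11 samples.

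By counts, variation within the canonical class lay mostly at position 4, at the junction of V and J. Position 4 differed from the leading CDR3 in 7.31% of the class's counts, over 15 CDR3s. Each of the other 14 positions differed in 0.0481% to 0.301% of counts. Of the 53 other canonical CDR3s, 47 differed from the leading one by 1 residue, with 735 counts, and 6 by more, with 7 counts. The 10 CDR3s whose 1 substitution was at position 4 held 602 of those counts. By number of sequences the picture differed, since 32 of the 53 did not end in DRGSALGRLHF, with 96 counts in all.

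**Figure D1:**
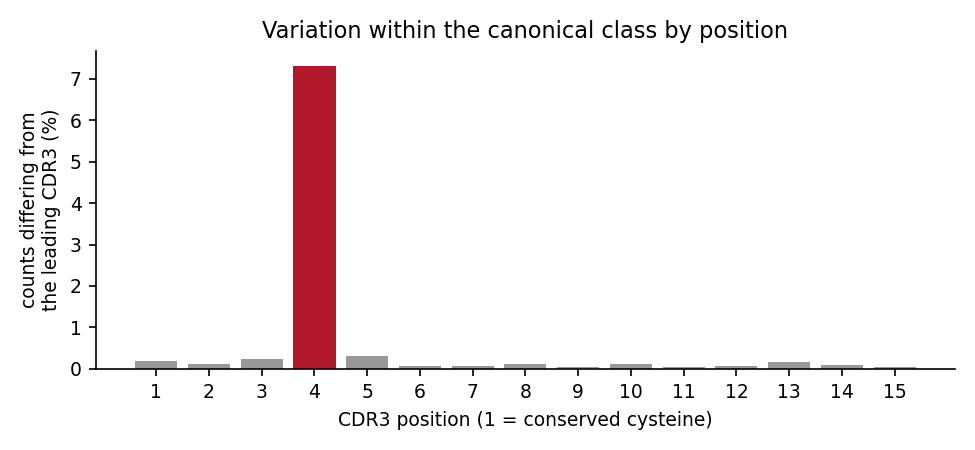
Share of the counts of the canonical class (%, y axis) that differ from the leading CDR3 at each of 15 positions (x axis), all 29 samples summed. Position 4, in red, stands at 7.31%, and no other position passes 0.301%.

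CDR3 length was nearly uniform where TRAV11 was joined to TRAJ18. Since the canonical class was defined by 15 residues, length is described here over all TRAV11 clonotypes joined to TRAJ18. Of 8321 such counts, 99.9% had 15 residues, and the only exception was 1 clonotype of 16 residues with 6 counts. CDR3s of 15 residues made up 16.3% of 509 TRAV11 counts joined to another J, 16.1% of 15274 TRAJ18 counts joined to another V and 11.8% of all other TRA counts. The most frequent length in these 3 sets was 14 residues, with 36.9%, 71.7% and 34.0% of counts in the same order. For TRAJ18 with other V segments that peak rested on 1 expanded CDR3 of 14 residues, given below. Without it, in a setting chosen after seeing the data, 43.3% of the set's counts had 15 residues and 23.8% had 14. Counted once each, 151 of its 464 clonotypes had 15 residues (32.5%) and 149 had 14 (32.1%).

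**Figure D2:**
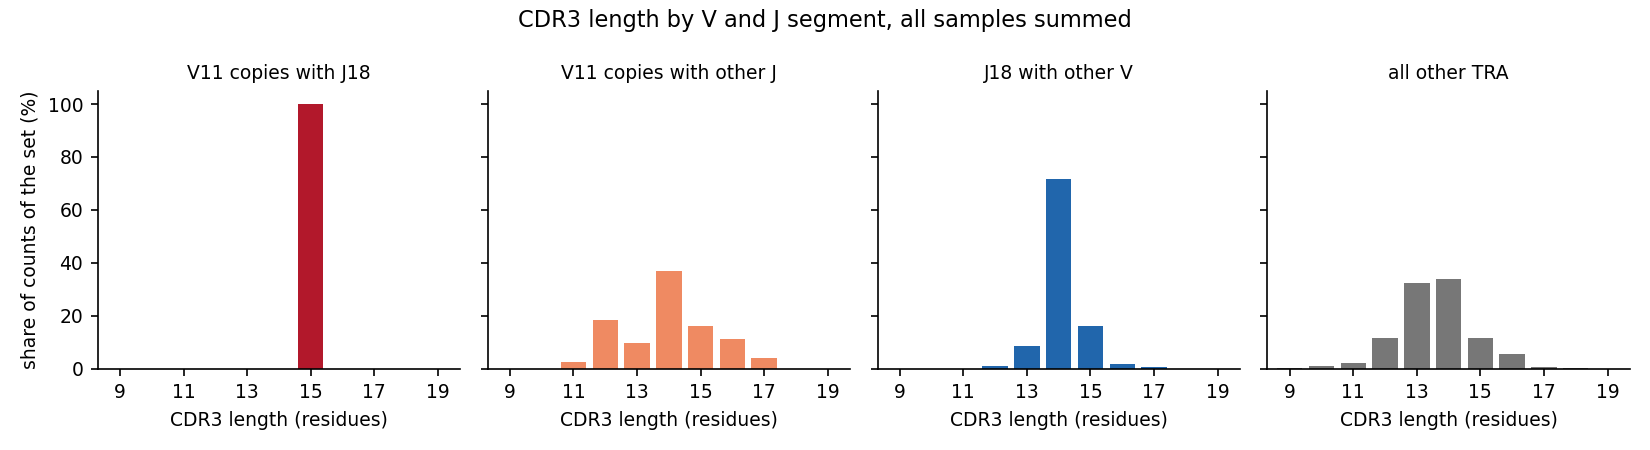
Distribution of CDR3 length (x axis, residues) as a share of each set's counts (y axis, %), all samples summed. TRAV11 copies with TRAJ18 had 99.9% of counts at 15 residues, while the other 3 sets peaked at 14. In TRAJ18 with other V segments that peak is 1 CDR3, without which 43.3% of counts have 15 residues and 23.8% have 14.

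The copy TRAV11N was the most frequent V name. It held 6956 canonical counts (83.7%), the joined name of TRAV11 and TRAV11D held 1241 (14.9%), and the name joining all 3 copies held 118 (1.42%). TRAV11 and TRAV11D were never named separately, so they cannot be told apart. Among counts assigned to either, TRAV11N took 78.9% to 92.0% in ovary samples (mean 85.1 ± 3.90%, SD, n = 10) and 50.0% to 100% in brain samples (median 89.2%, n = 19). The summed canonical counts gave 84.9% in the ovary and 84.2% in the brain. Among other TRAV11 clonotypes the name held 78.2% of assigned counts in the ovary and 71.0% in the brain. The TRAJ50 and TRAJ57 CDR3s given below, each found in 1 number, stood under both TRAV11N and the joined name of TRAV11 and TRAV11D. How reliably the copies were told apart was not tested, so these values are shares of names.

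By counts, TRAV11 was joined mostly to TRAJ18, and by clonotype about as often to other J segments. The join held 94.2% of TRAV11 counts and 89 of 171 TRAV11 clonotypes (52.0%). TRAJ18 took 4.91% of the TRA counts outside TRAV11, and 35.3% of all TRAJ18 counts were joined to a TRAV11 copy. Untreated number 3 set both of the last values. Without it, in another setting chosen after seeing the data, TRAJ18 took 1.25% of the counts outside TRAV11 and 69.4% of TRAJ18 counts were joined to a TRAV11 copy, while 93.9% of TRAV11 counts were joined to TRAJ18. The most frequent J segments in the other TRAV11 clonotypes were TRAJ50 (100 counts), TRAJ32 (88 counts) and TRAJ57 (75 counts). The class was found in 19 of 29 samples, 10 of 10 in the ovary and 9 of 19 in the brain. Its most abundant CDR3s follow, to set beside the canonical ones.
TRAV11 with TRAJ50: cvvggpssfsklvf
TRAV11 with TRAJ57: cvdqggsaklif
TRAV11 with TRAJ4: cvvgapgsfnkltf
The first had 82 counts, all in the lead-in combination's number 12, with 13 and 64 in the ovary parts and 1 and 4 in the brain parts. The second had 75 counts in the same number, with 22 and 45 in the ovary parts and 5 and 3 in the brain parts. The third had 42 counts in the ovary of number 10, and a TRAJ32 CDR3 had as many there. Of the 66 CDR3 and J combinations of this class, 65 occurred in 1 number, whereas 23 of 54 did so in the canonical class.

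TRAJ18 joined to other V segments shared the J-encoded end of the canonical chain and not its start. The 9 residues GSALGRLHF ended 82.1% of these clonotypes, which held 98.0% of the class's counts and 71 V names. The 11 residues DRGSALGRLHF ended 88 of 464 clonotypes with 46 V names, and the end of 13 residues, which adds a glycine and a valine of the leading chain, was found in none. TRAV7D-2 (10035 counts), TRAV14-2 joined with TRAV14N-2 (1227 counts) and TRAV6D-5 joined with TRAV6N-5 (545 counts) were its most frequent V names. The 3 most abundant CDR3s of the class show the same end behind different starts.
TRAJ18 with 9596 counts: capyRGSALGRLHF
TRAJ18 with 880 counts: caasgtGSALGRLHF
TRAJ18 with 594 counts: caaRGSALGRLHF
The first held 9596 counts, 62.8% of the class, and nearly all belonged to untreated number 3. With TRAV7D-2 it had 6377 and 3100 counts in the ovary parts of that number (17.0% and 14.3% of TRA counts) and 26 and 18 counts in its brain parts (7.16% and 4.86%). It was listed at 0 in all other samples with that V name. The second had 880 counts in 3 samples of 1 number. The third had 594 counts in 14 samples of 8 numbers, with 10 V names. Of 346 combinations in the class, 290 occurred in 1 number.

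In brain metastases the canonical chain took a smaller share of alpha chains on day 3 when anti-PD-L1 had been given with trametinib. In the lead-in combination, number 12 had canonical shares of 0.765% and 0.458% of TRA counts and number 14 had 0.809% and 1.31%. The concurrent combination gave 0.412% and 1.64% in number 1 and 1.24% and 1.72% in number 6. Trametinib alone had 2.67% and 3.60% in number 13 and 4.42% and 3.20% in number 8. All 8 combination samples thus lay below all 4 trametinib samples. Of the 239 V-J pairs with at least 10 counts in at least 2 brain libraries, the canonical pair was the only one ordered in this way (0.418%). A pair at 0 in any trametinib sample could not be ordered so, and these samples had 344 to 863 TRA counts. The 0.418% is therefore bound to depth and does not show that the pair is unusual. Lead-in combination samples averaged 0.835 ± 0.353%, concurrent combination samples 1.25 ± 0.598% and trametinib samples 3.47 ± 0.739% (SD, n = 4 each). The 4 samples of a treatment are 2 parts of each of 2 numbers. Of 76 V names, 2 were ordered in this way (2.63%), the TRAV11 copies summed and TRAV7N-5, and of 41 J segments 1 was (2.44%), TRAJ38 and not TRAJ18. TRAV7N-5 and TRAJ38, like TRAJ58, TRAJ23 and the TRAJ49 pair given later, are named after their values were seen.

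On day 0 the groups overlapped. The lead-in alone had 0.435% and 0.571% in number 10 and 2.48% and 0.387% in number 11. Untreated samples had 8.82% and 9.46% in number 3 and 1.10% in number 7, which had no parts. In the lead-in, 1 part of number 11 stood above the other 3 samples, and among untreated samples both parts of number 3 stood far above number 7. Counts behind these shares were small, with 1, 4, 168 and 5 canonical counts in the lead-in and 32, 35 and 7 in untreated samples. The exact interval was 6.68% to 12.9% for the highest share and 0.0110% to 2.40% for the sample with 1 count. In a bulk library, fewer cells of a type and less receptor RNA per cell cannot be told apart.

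**Figure D3:**
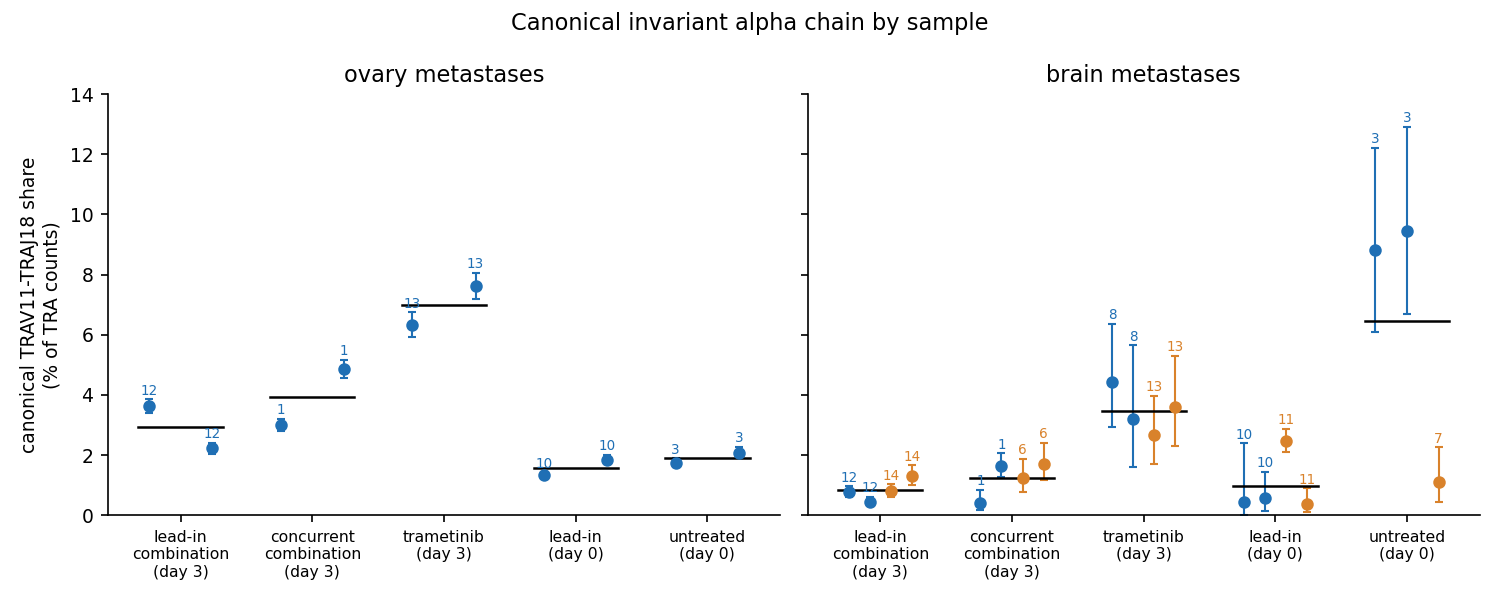
Canonical TRAV11-TRAJ18 share of TRA counts (%, y axis) in each ovary sample (left) and brain sample (right) by treatment (x axis). Points are samples with exact 95% intervals and the sample's number, colours separate the numbers of a treatment, and black lines are means over samples. The 8 brain samples of the combinations, at 0.412% to 1.72%, lie below the 4 trametinib samples, at 2.67% to 4.42%.

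Tested over numbers, the difference did not pass after adjustment. The canonical share was 1.02 ± 0.404% with any anti-PD-L1 (SD, n = 6 numbers) and 4.29 ± 3.43% without (n = 4), and averaged within day it was 3.29 percentage points lower (difference -3.29, p = 0.0222 by an exact two-sided permutation, 0.133 after adjustment over 6 tests, smallest possible p 0.0111). On the log2 scale of the share, the same permutation gave that smallest p of 0.0111 and an adjusted p of 0.0667. The test could thus pass only if another of the 6 tests also had a small p. Not passing therefore does not show that a difference is absent. The difference in share was -4.15 points on day 0 and -2.43 points on day 3, where the 4 combination numbers (0.611% to 1.48%) did not overlap the 2 trametinib numbers (3.13% and 3.81%). Without untreated number 3, whose 2 brain samples had 363 and 370 TRA counts, the difference was -1.28 points. The lead-in combination differed from the concurrent combination by -0.417 points (0.835 ± 0.317% and 1.25 ± 0.320%, SD, n = 2 numbers each), with the numbers overlapping. An exact test of these 4 numbers cannot pass, and edgeR's values for the contrast are given below. Trametinib-containing treatments had 1.85 ± 1.30% (n = 6) and day 0 treatments 3.04 ± 4.08% (n = 4), a difference that did not pass (exact permutation p = 0.648, adjusted p = 0.656). Without number 3 that difference turned to +0.840 points. Day and trametinib cannot be told apart in that contrast, since only day 3 samples received the drug. Its sides also held unequal proportions of numbers given anti-PD-L1, which neither this test nor edgeR balanced. With anti-PD-L1 the numbers averaged 0.968% on day 0 and 1.04% on day 3, and without it 5.12% and 3.47%. The part of this mix in the difference was not tested.

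The depth of the libraries moved with anti-PD-L1. Brain samples with anti-PD-L1 had 230 to 9389 TRA counts (median 3095, 12 samples) and those without had 344 to 863 (median 611, 7 samples). Canonical counts, not divided by the total, were 1 to 168 (median 38) with anti-PD-L1 and 7 to 35 (median 24) without. On the scale of log2 of canonical counts plus 1, averaged over parts, numbers with anti-PD-L1 had 4.64 ± 1.57 (SD, n = 6) and those without 4.23 ± 0.900 (n = 4), and the mean of the 2 within-day differences was 0.085 (exact permutation p = 0.889). The days went opposite ways. On day 3 the median canonical count was 54 in the combinations and 23.5 in trametinib, and on day 0 it was 4.5 in the lead-in and 32 in untreated samples. Median TRA totals were higher with anti-PD-L1 on both days, at 4732 against 639 on day 3 and at 996 against 370 on day 0. Input RNA is not known, and the part of sampling depth in the share was not tested.

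TRAJ18 as a whole, which includes the canonical counts and so is not a separate result, had a lower mean share with anti-PD-L1 on each day. TRAJ18 with any V took 1.71% to 4.12% of TRA counts in the 8 combination samples and 4.06% to 7.04% in the 4 trametinib samples, so 1 combination sample lay above 2 of the trametinib samples. On day 0 it took 1.30% to 3.88% in the 4 lead-in samples and 4.09% to 18.2% in the 3 untreated ones. The lowest untreated value, in number 7, rested on 26 counts. In the parts of number 3 the TRAV7D-2 clonotype described above alone held 7.16% and 4.86% of TRA counts. How many other J segments were ordered so on day 0 was not counted. Across the 41 J segments tested in the brain with edgeR's quasi-likelihood test, TRAJ18 had the lowest p-value for anti-PD-L1, with a log2 difference of -1.38 ± 0.379 (SE, 10 libraries), but missed the threshold of 0.05 after Benjamini-Hochberg adjustment (adjusted p = 0.0555). TRAJ58 had a lower difference and a higher p-value than TRAJ18, and the median over all J segments was 0.07. TRAJ23 reached the same adjusted p in the other direction, with a log2 difference of 0.837 ± 0.234 (SE, edgeR adjusted p = 0.0555). None of the 41 J segments passed (0%), and 5 had an unadjusted p-value under 0.05. With DESeq2 the adjusted p of TRAJ18 was 0.0297, and with TMM normalisation in edgeR it was 0.156. Without untreated number 3 the log2 difference of TRAJ18 was -0.71 and that of the TRAV11 copies -0.61 (edgeR adjusted p = 0.302 and 0.669).

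**Figure D4:**
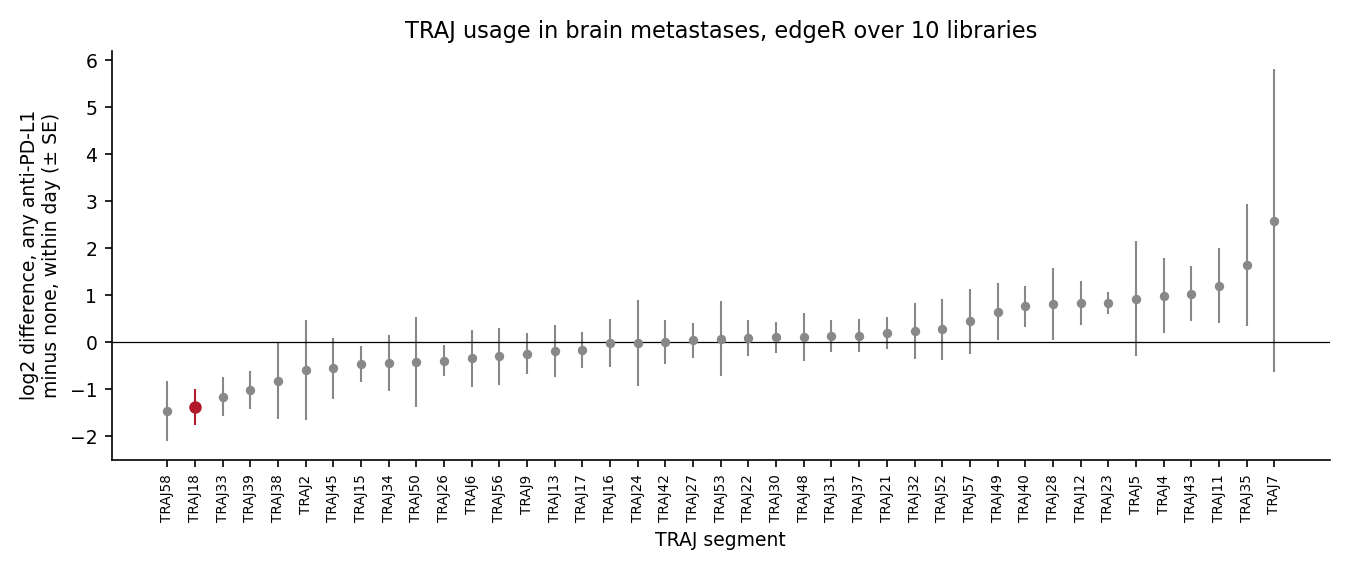
Log2 difference in usage between any anti-PD-L1 and none, averaged within day (y axis, with SE), for the 41 J segments tested in brain metastases, in order of the difference (x axis). TRAJ18, in red, is the second lowest at -1.38, and no segment passed the adjusted threshold.

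TRAV11 copies summed had a log2 difference of -1.74 ± 0.565 for anti-PD-L1 (SE, 10 libraries, edgeR adjusted p = 0.157) and ranked 3 by p-value among 76 V names, none of which passed (0%). The canonical pair had a log2 difference of -1.82 ± 1.53 (edgeR adjusted p = 0.829) among 239 pairs, a level at which the median over all pairs was 2.17 and none passed (0%). For anti-PD-L1, 0 of 24 simulated 8-fold changes were recovered among these pairs, so not passing says little about a pair. Between the 2 combinations, lead-in over concurrent, the log2 differences were -0.38 for TRAJ18, -0.43 for the TRAV11 copies and -0.79 for the canonical pair, with edgeR adjusted p of 0.848, 0.859 and 0.977 in the same order. For trametinib-containing treatments against day 0 they were -0.69, -0.63 and -0.74, with edgeR adjusted p of 0.846, 0.822 and 1.00. The only V-J pair that passed in any contrast was another one, TRAV14-2 joined with TRAV14N-2 and TRAJ49 (1 of 239 pairs, 0.418%, against day 0).

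The other classes did not follow the order of the canonical class on day 3. TRAJ18 with other V segments averaged 1.57 ± 0.353% in lead-in combination samples, 1.75 ± 0.504% in concurrent ones and 1.82 ± 0.828% in trametinib ones (SD, n = 4 each). The 4 samples of a treatment are 2 parts of each of 2 numbers, and the ranges overlapped. On day 0 TRAJ18 with other V segments had 1.59 ± 0.569% in the lead-in (n = 4) and 6.01 ± 3.20% in untreated samples (n = 3), where number 3 had 9.37% and 5.68%. Without the TRAV7D-2 clonotype described above, those 2 samples had 2.37% and 0.852%. Over numbers, the difference for anti-PD-L1 within day was -1.91 points (exact permutation p = 0.1, adjusted p = 0.2) and that for trametinib-containing treatments was -1.71 points (exact p = 0.0952, adjusted p = 0.2). The first was -0.782 points and the second -0.345 points without number 3, and the second was -0.101 points with each clonotype counted once. TRAV11 with other J segments or lengths was sparse, at 0.116% to 0.373% in lead-in combination samples and at 0 to 0.118% in concurrent ones. In trametinib it was at 0 in 3 of 4 samples and at 0.491% in the other, and in untreated samples at 0 in 2 of 3. Its differences were -0.06 points for anti-PD-L1 and 0.06 points for trametinib (exact permutation adjusted p = 0.656 and 0.536).

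In ovary metastases the canonical chain was highest in trametinib alone, with 1 number per treatment and no test. The lead-in combination had 3.63% and 2.22% in its 2 parts, the concurrent combination 2.99% and 4.87%, and trametinib 6.33% and 7.62%. The lead-in alone had 1.32% and 1.85%, and untreated samples had 1.75% and 2.08%. Every day 3 sample was above every day 0 sample, and the trametinib parts were above all others. How many other V-J pairs were ordered so in the ovary was not counted, and the parts of a treatment belong to 1 number. TRAJ18 with other V segments ran from 0.553% to 1.88% in the 8 treated ovary samples and was 21.4% and 18.6% in the untreated ones. Without the TRAV7D-2 clonotype the untreated parts had 5.27% and 5.11%.

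Between organs, the 5 numbers sampled in both gave no difference in share that passed. The canonical share was 3.47 ± 2.16% in the ovary and 2.88 ± 3.66% in the brain (SD, n = 5 numbers each; difference 0.585 points, exact permutation p = 0.738, adjusted p = 1). It was higher in the ovary in 4 of 5 numbers, the exception being untreated number 3, at 1.92% in the ovary and 9.14% in the brain. With number as a block the exact p was 0.8125 (adjusted p = 1). TRAV11 outside the canonical class had 0.169 ± 0.103% in the ovary and 0.109 ± 0.126% in the brain, and was higher in the ovary in 4 of 5 numbers (exact p = 0.413, adjusted p = 1). TRAJ18 with other V segments had 4.91 ± 8.44% in the ovary and 2.76 ± 2.67% in the brain, and was higher in the ovary only in number 3 (exact p = 1, adjusted p = 1). Without number 3 its difference was -0.426 points. In edgeR the log2 differences between ovary and brain were 0.58 ± 0.692 for TRAJ18, 0.29 ± 0.650 for the TRAV11 copies and 0.24 ± 1.27 for the canonical pair (SE, 10 libraries, adjusted p = 0.961, 0.874 and 0.986), and none of 41 J segments, 86 V names or 886 pairs passed (0%). With number as a replicate block in the same edgeR fit they were 0.64, 0.95 and 1.01 (adjusted p = 0.413, 0.239 and 0.990). The block raised the number of V names called to 6, none of them the TRAV11 copies, and called no J segment or pair. Among the 886 pairs, 0 of 89 simulated 8-fold changes between organs were recovered without the block, so pairs that did not pass say little.

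**Figure D5:**
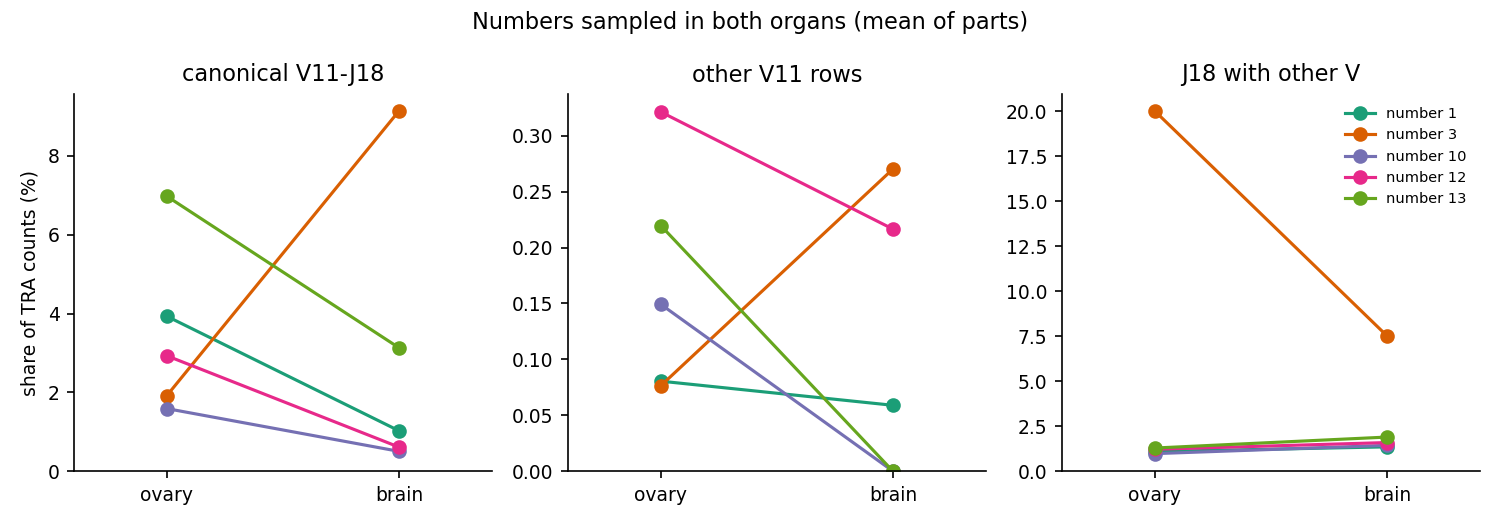
Share of TRA counts (%, y axis, a scale of its own in each panel) in the ovary (left) and brain (right) for the 5 numbers sampled in both organs, each the mean of its parts. Canonical shares were higher in the ovary in 4 of 5 numbers, and number 3 went the other way, while TRAJ18 with other V segments was higher in the ovary only in number 3.

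The rank of the canonical pair among all V-J pairs varied with its share, with only the TRAV11 copies pooled over V names. It was the most abundant pair in the ovary of numbers 1 and 13 and in the brain of numbers 13, 8 and 3, and it ranked 3 in the ovary of number 3. In the brain of lead-in number 10 it ranked 54 of 229 pairs. Over the 15 number and organ units, the pairs whose share was most alike were TRAV6N-7 with TRAJ23 (Spearman's rho 0.609), TRAV7D-2 with TRAJ15 (0.443) and TRAV10 with TRAJ31 (0.419), the highest of 53 pairs compared. These units share numbers and differ in depth, and the values are a description.

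The beta segments that invariant natural killer T cells of the mouse use were all present, although the table does not pair alpha with beta chains. TRBV13-2, the main partner, took 6.99% to 15.6% of beta counts in ovary samples (median 9.66%) and 4.74% to 14.8% in brain samples (median 8.08%). TRBV29 took 3.15% to 4.56% in the ovary and 3.72% to 19.1% in the brain, and TRBV1 5.90% to 17.1% and 4.02% to 10.9%. On day 3 in the brain, where the 4 samples of a treatment are 2 parts of each of 2 numbers, 3 segments were averaged by treatment. TRBV13-2 averaged 6.59 ± 1.10% in lead-in combination samples, 9.67 ± 3.78% in concurrent ones and 8.38 ± 3.42% in trametinib ones (SD, n = 4 each). TRBV29 averaged 10.5 ± 7.87%, 8.29 ± 1.42% and 6.44 ± 1.14% in the same order, and TRBV1 5.74 ± 1.09%, 6.34 ± 1.97% and 7.52 ± 2.34%. For each of the 3 segments the ranges of the combinations and of trametinib overlapped, unlike the canonical alpha shares. Conventional T cells use the same beta segments. The alpha pair of mucosal-associated invariant T cells, another innate-like type, TRAV1 with TRAJ33, was found in 8 of 10 ovary samples with at most 26 counts and in 1 of 19 brain samples with 3 counts.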

How the data were processed

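Receptor libraries were prepared from RNA with a QIAGEN immune repertoire kit, per the labels' protocols. The deposited data are counts per clonotype and sample in 1 combined table, with no normalization. The aligner, the clonotype caller and the nature of a count (read or molecule) are not stated in any source used. CDR3s with an unresolved residue (43 TRA clonotypes, 0.0144% of counts) were left out. No V name joined a TRAV11 copy to another segment.

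Shares are percent of the TRA counts of a sample, computed from the deposited counts. Parts of a number were averaged for exact two-sided permutation tests (6 in the brain, 3 between organs, Benjamini-Hochberg within each) and summed for edgeR 4.0.16 (quasi-likelihood test, log TRA total as offset, at least 10 counts in at least 2 libraries, threshold 0.05) in R 4.3.3. DESeq2 1.42.0 was an alternative. Python 3.11.15, pandas 2.3.3, scipy 1.17.1 and matplotlib 3.10.9 did the rest. The edgeR steps were tested on simulated data. Named CDR3s are the 3 of highest count in each class, and named V and J partners and similar pairs are likewise the 3 highest. Members and lists were chosen with earlier results of these data known.

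V usage of matched numbers, as deviation from the organ mean, correlated across 81 V names at 0.275, 0.250, 0.203, 0.528 and 0.344 (numbers 1, 3, 10, 12 and 13 in turn). All exceed 0.1, while unmatched numbers gave -0.381 to 0.0961. Matched numbers also share treatment and day, so pairing by number and shared treatment cannot be told apart here. The organ tests were planned without pairing by number, and values with number as a block are given beside them.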

Additional observations from a re-analysis of the deposited data

Results flagged for a closer look

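Of 12 groups of 4 samples in which each class was examined, 3 held a sample far from the others, and chance marks about 1 group in 20 of normally distributed values. In 2 of the 3 the other samples were all at 0, where any count stands apart and that rate does not apply. In the brain lead-in group, part 1 of number 11 had a canonical share of 2.48%, while the other 3 samples had 0.387% to 0.571%. The same sample, with 1 count, held the only TRAV11 clonotype outside the canonical class in that group (0.0147%). In the brain trametinib group, part 1 of number 8 had 0.491% of TRAV11 outside the canonical class, 3 counts of 1 clonotype, and the other 3 samples had 0.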

How the results depend on the processing

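Of 525 values under alternative settings, 450 kept their direction and side of the threshold or, for counts of calls, stayed within 1.5 times, or, for joins and lengths, stayed within the counting interval. The causes of the changes were not tested. With each part as its own sample, the anti-PD-L1 difference was -3.96 points for the canonical class (exact permutation adjusted p = 0.00485) and -2.29 points for TRAJ18 with other V (adjusted p = 0.0305), but parts share clonotypes, so these p-values are too small. Leaving out 1 number at a time gave, for anti-PD-L1, -5.30 to -1.28 points for the canonical class (adjusted p 0.1 to 0.711), -0.126 to 0.00873 for other TRAV11 and -3.05 to -0.782 for TRAJ18 with other V. For trametinib-containing treatments the canonical range was -2.04 to 0.840, and for ovary against brain it was -0.229 to 2.54, and -0.426 to 2.85 for TRAJ18 with other V.

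With the names of TRAV11 and TRAV11D alone, the anti-PD-L1 difference of other TRAV11 was 0.0200 and the canonical difference between organs was -0.144 points. Counting each clonotype once made the latter value -0.0190. TRAJ18 with other V between organs was -0.0714 on the log2 scale and -0.123 points without the largest clonotype, and the canonical trametinib difference was 0.919 points without the samples under 400 counts. The settings without the largest clonotype, without shallow samples and with undivided counts, and those for joins and CDR3 lengths, were chosen after seeing the data. For log2 counts plus 1, not divided by the total, anti-PD-L1 differences were 0.0851 (canonical), 0.858 (other TRAV11) and 1.14 (TRAJ18 with other V), and trametinib differences were 1.31 (canonical) and 0.821 (TRAJ18 with other V). On that scale the ovary was higher by 5.17 (canonical), 3.93 (other TRAV11) and 4.13 (TRAJ18 with other V), with exact permutation adjusted p of 0.0119, 0.0159 and 0.0119. Every ovary sample also had more TRA counts (14088 to 51549) than any brain sample (230 to 9389). Counts not divided by the total carry that depth, so these values do not describe a difference in share.

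In edgeR, the anti-PD-L1 log2 difference of TRAJ18 ran from -1.72 to -0.71 with 1 number left out (adjusted p 0.00250 to 0.354), the smallest difference being without number 3. It passed without number 7, 12 or 14 and with parts as libraries (-1.59, adjusted p = 0.000702). TRAV11 copies ran from -2.44 to -0.61 (adjusted p 0.00666 to 0.726), again smallest without number 3, and passed without number 7 and with parts as libraries (-2.09, adjusted p = 0.00352). For the lead-in combination against the concurrent one, TRAJ18 turned to 0.085 with DESeq2 and 0.15 with TMM. For trametinib, TRAV11 copies ran from -1.06 to 0.49 and turned to 0.49 without number 3 and 0.06 without number 11, and the canonical pair ran from -1.15 to 0.37 and was 0.012 with DESeq2. Between organs, TRAV11 copies ran from -0.11 to 1.48 and the canonical pair from -0.18 to 1.47, below 0 without number 13.

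Counts of calls, 0 unless stated, changed as follows. J segments for anti-PD-L1 were 3 with DESeq2, 1 with parts as libraries and 0 to 3 with a number left out, and for the lead-in combination 1 with DESeq2 and 0 to 1 with a number left out. V names for anti-PD-L1 were 1 with DESeq2, 4 with parts as libraries and 0 to 3 with a number left out, for the lead-in combination 1 without the filter, and between organs 4 with DESeq2 and 6 with number as a replicate block, none of them TRAV11. Pairs for anti-PD-L1 were 1 with DESeq2, for the lead-in combination 3 with parts as libraries and 0 to 1 with a number left out, and between organs 2 with DESeq2. The 1 pair called for trametinib was 0 with TMM and without the filter and 0 to 1 with a number left out. The replicate block changed no call of a member, and in the exact test it could not have done so. Depth limits what can be seen in the brain. There the shallowest sample with 0 counts of a class could hold 1.30% by the limit of 3 counts, or 1.59% by the exact interval. Of simulated 8-fold changes, 0 of 24 were recovered among 239 brain pairs for anti-PD-L1 and 0 of 89 among 886 pairs between organs, while 4 of 4 were recovered among 41 J segments in each.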
